A study of Mus musculus with 16 samples.

Results

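Expression of 3 genes of bile acid handling, Cyp7a1, Cyp27a1 and Abcb11, was followed in the livers of 16 mice, out of 760 genes on the panel. They were taken by name: the first enzyme of the classic route of bile acid synthesis, the enzyme that opens the alternative route, and the pump that exports bile salts. These genes and the gene lists used below were chosen with earlier results of these data known. All 3 genes passed the filter on low values and were among the 612 tested.

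The mice were male C57BL/6J animals with diet-induced MASH, or metabolic dysfunction-associated steatohepatitis, in which a fat-laden liver becomes inflamed and scarred. In one group, 8 mice received EVT0185 by gavage at 100 mg/kg. The other 8 received the vehicle, which was 1.5% CMC (carboxymethyl cellulose) with 0.2% Tween-20. All 16 were housed at 29 degrees C, labelled thermoneutral, and ate a diet that drew 40% of its calories from fat, chiefly palm oil, and 20% from fructose, with 0.02% cholesterol added, so the data hold no liver free of the diet. The series title describes EVT0185 as an inhibitor of acetyl-CoA metabolic enzymes, and the comparison shows how liver transcripts differed with dosing. The sources used here do not give the age of the mice, how long they were dosed or whether they had fasted. The titles call each sample a separate biological replicate.

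Bile acids are made from cholesterol in hepatocytes and are the main route by which the body disposes of cholesterol. Cyp7a1, the rate-limiting cholesterol hydroxylase, starts the classic route. Cyp27a1, a mitochondrial sterol hydroxylase, starts the alternative route and also oxidizes the side chain in the classic one. Abcb11, the bile salt export pump, moves the finished bile salts across the canalicular membrane into bile. The bile acid receptor FXR (gene Nr1h4) raises Abcb11 transcription and lowers that of Cyp7a1, in part through FGF15 released from the intestine in mice.

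The promoter stretches of Abcb11 and Cyp27a1 are shown because both transcripts were lower in EVT0185 livers and because Abcb11 is a textbook FXR target. They are the 250 bases before each gene's start, from RefSeq on GRCm38.p6, which held an entry for 2 of the 3 genes. The Abcb11 stretch is chr2:69342617-69342866 on the minus strand and the Cyp27a1 stretch is chr1:74713285-74713534 on the plus strand. Capitals mark matches, on either strand, to GGNCANTGNCC, AGGTCA or CCAAT.
Abcb11 promoter: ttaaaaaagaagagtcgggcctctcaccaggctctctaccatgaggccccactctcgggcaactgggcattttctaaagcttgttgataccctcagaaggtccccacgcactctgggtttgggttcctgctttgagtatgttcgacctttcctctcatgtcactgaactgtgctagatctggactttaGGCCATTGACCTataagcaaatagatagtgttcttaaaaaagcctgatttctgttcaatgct
Cyp27a1 promoter: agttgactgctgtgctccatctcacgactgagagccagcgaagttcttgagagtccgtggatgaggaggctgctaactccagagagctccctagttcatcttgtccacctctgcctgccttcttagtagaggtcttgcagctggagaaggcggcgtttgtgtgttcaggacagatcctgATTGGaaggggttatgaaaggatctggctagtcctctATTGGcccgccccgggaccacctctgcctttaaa
GGNCANTGNCC is an inverted repeat of a nuclear receptor half-site with 1 base between its copies, the arrangement that FXR is known to bind. It matched the Abcb11 stretch once, 52 to 62 bases before the start, and matched 0.575% of 32851 promoter stretches of the same length. The half-site AGGTCA overlapped that match in Abcb11 and was found in 14% of the stretches. Cyp27a1 held neither, and held 2 CCAAT boxes in reverse orientation, a motif found in 33.8% of the stretches. These are matches of letters, chosen after the sequences were seen, and no binding was measured.

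All values below are nCounter counts normalized by the authors. Total counts recovered from the deposited values ranged from 1462994 to 1838958 in EVT0185 and from 1470453 to 1850800 in vehicle livers. Of the 612 tested genes, limma called 200 (32.7%) at an adjusted p under 0.05, with 68 (11.1%) higher and 132 (21.6%) lower in EVT0185. The median gene differed by log2 -0.10, and the split moved with scaling: 34% of called genes were higher on the deposited scale, 53.3% after centring each sample on its median and 54.8% after quantile normalization. Changes of the bile acid genes are therefore also given under both scalings.

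Cyp7a1 was lower on average in EVT0185 livers, but the difference did not pass the test. Its normalized count had a lowest value of 213, a median of 537 and a highest value of 1004 in EVT0185 livers, against 243, 1177 and 1851 in vehicle livers. The groups overlapped: 1 of 8 EVT0185 livers lay below every vehicle liver, and 5 of 8 vehicle livers lay above every EVT0185 liver. The mean was 577 ± 250.5 in EVT0185 and 1197 ± 563 in vehicle livers (SD, n = 8 each), and the log2 difference was -0.97 (SE 0.38, 95% interval -1.75 to -0.18, limma adjusted p = 0.0564). In bulk liver RNA, fewer hepatocytes and less of a transcript per hepatocyte cannot be told apart. The overlap came from both ends. The lowest vehicle liver, vehicle 4, held 243, which was below every EVT0185 liver except EVT0185 8 at 213. The difference was log2 -1.26 without vehicle 4, -1.05 without vehicle 1 and -1.10 without EVT0185 2, and each of these passed (limma adjusted p = 0.00324, 0.0492 and 0.0395). Leaving out each of the other 13 animals gave -1.06 to -0.78, and none of these passed (limma adjusted p from 0.0517 to 0.117). Under median centring Cyp7a1 read -0.87, and under quantile normalization -0.89 (limma adjusted p = 0.0957 and 0.0753).

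Cyp27a1 fell in EVT0185 livers. Its normalized count ran from 1108 through a median of 1286 to 1799 in EVT0185 livers, against 1508, 1875 and 2913 in vehicle livers. Only the 2 highest EVT0185 livers, EVT0185 4 and EVT0185 7, reached into the vehicle range, and 6 of 8 lay below every vehicle liver. The mean was 1348 ± 239 in EVT0185 and 2026 ± 505 in vehicle livers (SD, n = 8 each). The fitted level was 1.48-fold lower in EVT0185 (log2 -0.57, SE 0.14, 95% interval -0.86 to -0.28, limma adjusted p = 0.00461). The difference was -0.47 under median centring and also -0.47 under quantile normalization, and the call held under every alternative run.

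Abcb11, the export pump, had the smallest difference of the 3 genes and, on the deposited scale, the least overlap between the groups. Its normalized count ran from 1177 through a median of 1407 to 1688 in EVT0185 livers, against 1628, 1899 and 2328 in vehicle livers. The groups met at a single point: EVT0185 4, at 1688, lay above vehicle 1, at 1628, and in 63 of the 64 pairings of an EVT0185 with a vehicle liver the EVT0185 value was the lower. The mean was 1417 ± 182 in EVT0185 and 1918 ± 200.1 in vehicle livers (SD, n = 8 each). The fitted level was 1.36-fold lower (log2 -0.44, SE 0.086, 95% interval -0.62 to -0.26, limma adjusted p = 0.000797). Median centring gave -0.35 and quantile normalization -0.36, with the call kept under every alternative run. The order of overlap moved with scaling: after median centring the EVT0185 value was the lower in 59 of 64 pairings for Abcb11 and 59 for Cyp27a1, with 5 and 6 of 8 EVT0185 livers below every vehicle liver. After quantile normalization both genes had 62 of 64 pairings and 6 of 8 livers. In all, 2 of the 3 genes were called lower, where 21.6% of all tested genes were (13.7% after median centring and 14.5% after quantile normalization). In 0 of the 3 did the groups not overlap at all, where 2.29% of tested genes were lower without overlap and 6.86% were apart in either direction. No more is read from so few genes, which were chosen with earlier results of these data known.

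**Figure D1:**
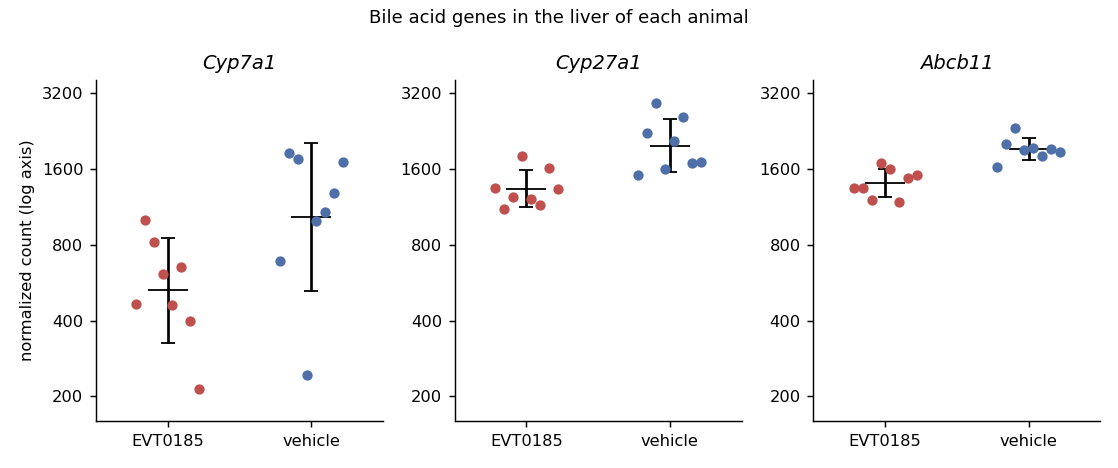
Normalized counts of Cyp7a1, Cyp27a1 and Abcb11 on a log axis, 1 point per animal, for 8 EVT0185 (left) and 8 vehicle (right) livers. Bars show the geometric mean and 1 SD on the log2 scale; Cyp7a1 spreads over both groups, while 7 of 8 EVT0185 livers lie below every vehicle liver for Abcb11.

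The 3 genes differed widely in how much they varied between animals of the same group. Cyp7a1 spanned 4.71-fold between the lowest and highest EVT0185 liver and 7.62-fold among vehicle livers. Cyp27a1 spanned 1.62-fold in EVT0185 and 1.93-fold in vehicle livers, and Abcb11 1.43-fold in both. The SD between animals of a group, pooled over both groups, was 0.84 for Cyp7a1, 0.30 for Cyp27a1 and 0.17 for Abcb11 on the log2 scale, against a median of 0.25 over the 612 genes. Of these 612 genes, 5 varied more than Cyp7a1, and they are named here after their values were seen: the macrophage receptors Marco and Cd163, the lipid droplet protein Pnpla3, the acute-phase probe Saa1/2 and the apolipoprotein Apoa4. Counting error was small beside this: for Cyp7a1 the counting SD was 0.066 in EVT0185 and 0.052 in vehicle livers, against 0.69 and 0.97 between animals. No difference in spread between the groups passed an exact permutation test on deviations from the group median, with mean deviations of 0.52 in EVT0185 and 0.66 in vehicle for Cyp7a1 (adjusted p = 0.685), 0.18 and 0.29 for Cyp27a1 (exact permutation adjusted p = 0.349) and 0.15 and 0.094 for Abcb11 (exact permutation adjusted p = 0.349). This test of spread is approximate, because the group medians are themselves estimated. Without vehicle 4 the difference in spread for Cyp7a1 turned sign, to 0.11, and after median centring that for Abcb11 did, to -0.012.

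**Figure D2:**
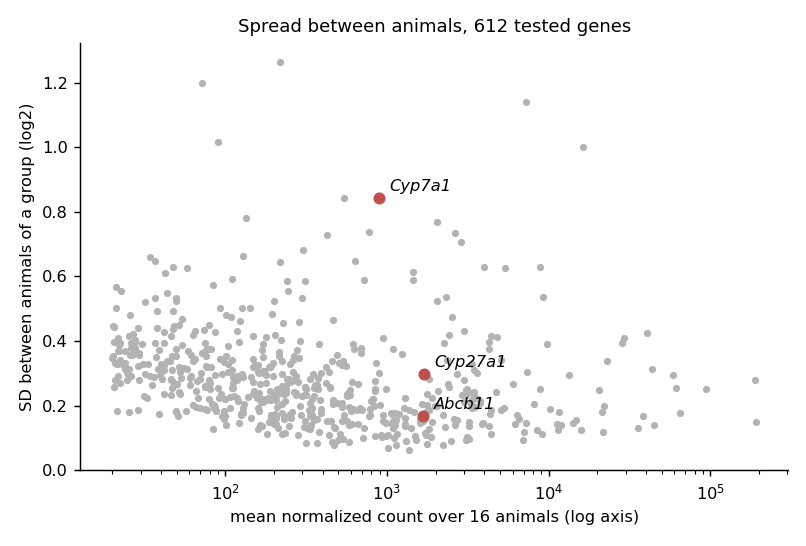
SD between animals of the same group on the log2 scale, pooled over both groups, against the mean normalized count (log axis) for each of the 612 tested genes. Cyp7a1, at 0.84, lies near the top of the panel, Cyp27a1 at 0.30 and Abcb11 at 0.17 lie on either side of the median of 0.25.

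A log2 difference between 2 genes of the same liver carries no scaling factor, so it was used to ask whether the 3 genes changed unequally. None of the 3 pairs passed the exact permutation test. Cyp7a1 minus Cyp27a1 averaged -1.34 ± 0.80 in EVT0185 and -0.94 ± 0.84 in vehicle livers (SD, n = 8 each), a difference of -0.40 (SE 0.41, exact permutation adjusted p = 0.35 over 3 pairs). Cyp7a1 minus Abcb11 averaged -1.42 ± 0.79 in EVT0185 and -0.89 ± 0.92 in vehicle livers, a difference of -0.52 (SE 0.43, exact permutation adjusted p = 0.35). Cyp27a1 minus Abcb11 differed by -0.13 (SE 0.12, exact permutation adjusted p = 0.35). With these errors, a larger difference in Cyp7a1 than in the other 2 genes was not detected, nor was an equal one shown. Without vehicle 4, the first 2 differences were -0.65 and -0.82, and neither passed (exact permutation adjusted p from 0.083).

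Within a group, the 3 genes did not track each other beyond what the test could show. Cyp27a1 and Abcb11 gave the highest coefficient, with r = 0.55 and rho = 0.45 among EVT0185 livers (exact permutation p = 0.154 and 0.267, n = 8), and r = 0.47 and rho = 0.45 among vehicle livers (exact permutation p = 0.236 and 0.267). Leaving out the 2 livers farthest from the median of Cyp27a1 gave r = -0.15 in EVT0185 and 0.0074 in vehicle livers. Leaving out the extremes of a gene narrows its range and can itself lower r, so this does not settle what the coefficients rested on. Without centring, r was 0.63 in EVT0185 and 0.69 in vehicle livers (exact permutation adjusted p = 0.28 for both). For Cyp7a1 and Cyp27a1, r was 0.018 among EVT0185 livers (rho = 0.048, exact permutation p = 0.967 and 0.935) and 0.50 among vehicle livers (rho = 0.43, exact permutation p = 0.215 and 0.299). Without the 2 farthest livers these were -0.061 and -0.037. For Cyp7a1 and Abcb11, r was 0.022 and rho 0.071 in EVT0185 livers (exact permutation p = 0.96 and 0.882), and r was 0.25 and rho 0.21 in vehicle livers (exact permutation p = 0.547 and 0.619), or r = -0.30 and 0.55 without the 2 farthest. Over these 6 relations the adjusted p ran from 0.473 to 0.967 for r and from 0.598 to 0.935 for rho (exact permutation).

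**Figure D3:**
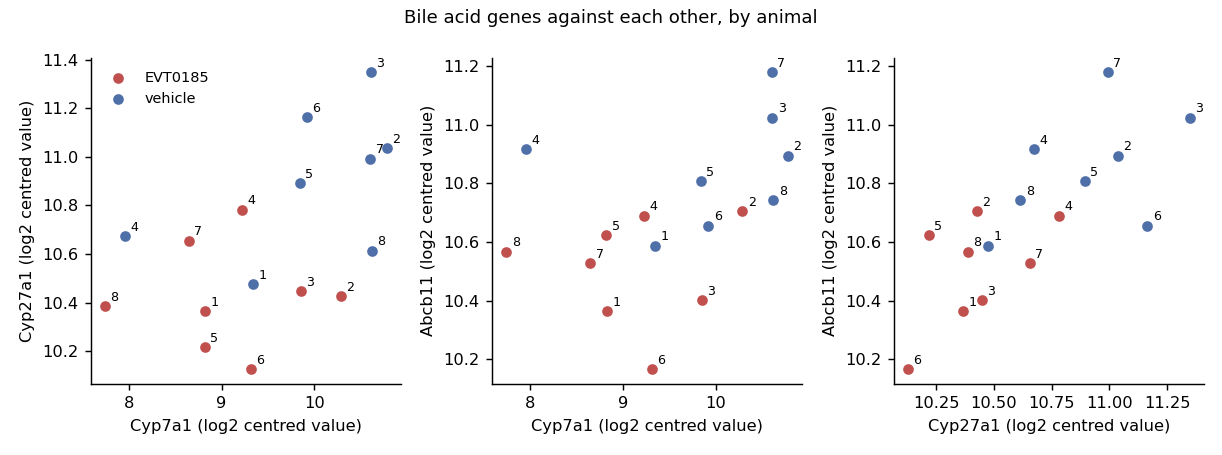
Each pair of bile acid genes plotted against each other, as log2 values centred on the median of the tested genes in each sample; points are animals, numbered by replicate. Vehicle 4 and EVT0185 8 stand at the low end of Cyp7a1 while their Cyp27a1 and Abcb11 values lie within their groups.

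The genes whose pattern was most like each of the 3 were ranked by Pearson r over all 16 livers, on centred deviations from the group means. The livers share the panel and the scaling, and the coefficients are a description with no test. For Cyp7a1 they were Pik3c3, a lipid kinase of autophagy (r = 0.69), Lpcat1, an enzyme of phospholipid remodelling (r = 0.69), and Nr1h4, the bile acid receptor (r = 0.68). Without vehicle 4 and EVT0185 8, the livers farthest out for Cyp7a1, r was 0.63, 0.68 and 0.40. For Cyp27a1 they were the cell-surface proteoglycan Gpc4 (r = 0.84), the growth factor Igf1 (r = 0.79) and the EGF receptor Egfr (r = 0.79), or 0.80, 0.64 and 0.63 without vehicle 3 and vehicle 1. Gpc4 also fell (log2 -0.44, SE 0.11, limma adjusted p = 0.00453). For Abcb11 they were Srebf1, a transcription factor of lipogenesis (r = 0.82), Acox2, a peroxisomal oxidase of the bile acid side chain (r = 0.82), and the plasma glycoprotein Apoh (r = 0.81), or 0.72, 0.73 and 0.74 without EVT0185 6 and vehicle 1. Srebf1 and Apoh fell (log2 -0.60 and -0.22, SE 0.14 and 0.077, limma adjusted p = 0.00335 and 0.0325), while Acox2 differed by 0.11 (SE 0.088, limma adjusted p = 0.369). By the same measure Cyp27a1 and Abcb11 ranked 128th and 259th for Cyp7a1. Abcb11 ranked 46th for Cyp27a1, and Cyp27a1 ranked 120th for Abcb11 (r = 0.50).

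Of the other measured genes of bile acid synthesis, Hsd17b4 was the only one called. Of 5 measured genes of the synthesis list, Cyp27a1 fell, Hsd17b4 rose and 3 were not called, and the median difference was log2 -0.36, against -0.10 over all tested genes. Counts of this and the following lists stand beside 11.1% of all tested genes called higher and 21.6% called lower. Hsd17b4, the peroxisomal bifunctional enzyme that acts on both fatty acids and bile acid intermediates, had a lowest, median and highest value of 5695, 6412 and 7056 in EVT0185 livers, against 3296, 3998 and 5552 in vehicle livers. All 8 EVT0185 livers lay above every vehicle liver (log2 0.65, SE 0.095, limma adjusted p = 5.14e-05). Over all tested genes, the groups were apart in either direction in 6.86%. Cyp8b1, the sterol hydroxylase that sets the share of cholic acid, had 1303, 3301 and 5852 in EVT0185 livers, against 1861, 4947 and 6057 in vehicle livers. These ranges overlap almost entirely, and the difference was log2 -0.36 (SE 0.28, limma adjusted p = 0.352). Abcb11 was the only measured gene of the 18 on the transport list.

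Of the 8 measured regulators of bile acid genes, 7 were tested and 1 was called. Nr1h4, the receptor itself, averaged 1799 ± 154 in EVT0185 and 1763 ± 289 in vehicle livers (SD, n = 8 each), a difference of log2 0.043 (SE 0.099, limma adjusted p = 0.766). The called gene was Cebpa, a transcription factor of hepatocytes, which fell (log2 -0.36, SE 0.092, limma adjusted p = 0.0062), with 5 of 8 EVT0185 livers below every vehicle liver. The call of Cebpa was lost after median centring (log2 -0.27, limma adjusted p = 0.0613). The oxysterol receptor Nr1h2 differed by log2 -0.18 (limma adjusted p = 0.223). It passed without vehicle 7 (log2 -0.25, limma adjusted p = 0.0313) and under 1 alternative setting (log2 -0.20, limma adjusted p = 0.0485). The hormone Fgf21 differed by -0.25 (limma adjusted p = 0.454). Ppara, the fatty acid receptor, differed by -0.12 (SE 0.12, limma adjusted p = 0.512). Fgf15 lay under the floor, at a mean of 8.41 in EVT0185 and 7.76 in vehicle livers, and was not tested.

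Signals known to repress Cyp7a1 were mostly not called. Of 10 measured cytokine and kinase genes 9 were tested, 1 fell and 0 rose, with a median difference of log2 -0.058. The one that fell, the cytokine Il6, averaged 24.5 ± 3.84 in EVT0185 and 36.2 ± 10.2 in vehicle livers (SD, n = 8 each, log2 -0.51, limma adjusted p = 0.0427). Its values lay near the floor of 20, with lowest values of 15.8 in EVT0185 and 17.8 in vehicle livers. Its call was lost after median centring, after quantile normalization, with no floor, in an exact rank-sum test and without any 1 of 13 livers, namely EVT0185 1, 2, 3, 4, 6, 7 and 8 and vehicle 2, 3, 5, 6, 7 and 8 (limma adjusted p up to 0.0885 without 1 liver). Egfr differed by log2 -0.87 (SE 0.33, limma adjusted p = 0.0502), a value led by vehicle 3, whose count of 3322 stood against a vehicle median of 815. The difference was -0.59 without vehicle 3, and it passed without EVT0185 1 or 4 or vehicle 1, 7 or 8 (limma adjusted p from 0.0215). Egfr also passed under 3 alternative settings, among them the replicate block (limma adjusted p = 0.0281). Mapk9, a stress kinase, differed by log2 0.18 (limma adjusted p = 0.0629). It passed under 4 alternative settings, among them median centring and quantile normalization (limma adjusted p = 0.00767 and 0.00727), and without EVT0185 2 (limma adjusted p = 0.0199).

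In the cholesterol list 0 of 4 tested genes were called in limma (0 at an unadjusted p under 0.05, and none of Lipa, Abca1 and Npc1 in an exact rank-sum test). Their differences lay between log2 -0.15 for Lipa, the lysosomal cholesteryl ester hydrolase, and 0.026 for Lipc, hepatic lipase. The cholesterol exporter Abca1 and the lysosomal cholesterol transporter Npc1 differed by -0.049 and -0.039, and turned sign without vehicle 3 and vehicle 2 (0.0038 and 0.0058). Among xenobiotic enzymes 0 of 4 were called in limma (0 at an unadjusted p under 0.05). Cyp2c29, Cyp2e1 and Cyp2j6 differed by log2 -0.16, -0.10 and 0.24, and none passed an exact rank-sum test. Leaving out the 3 bile acid genes, 1 of the 27 tested genes of all 6 lists rose and 2 fell, with a median difference of log2 -0.058. Over all tested genes 11.1% rose and 21.6% fell.

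**Figure D4:**
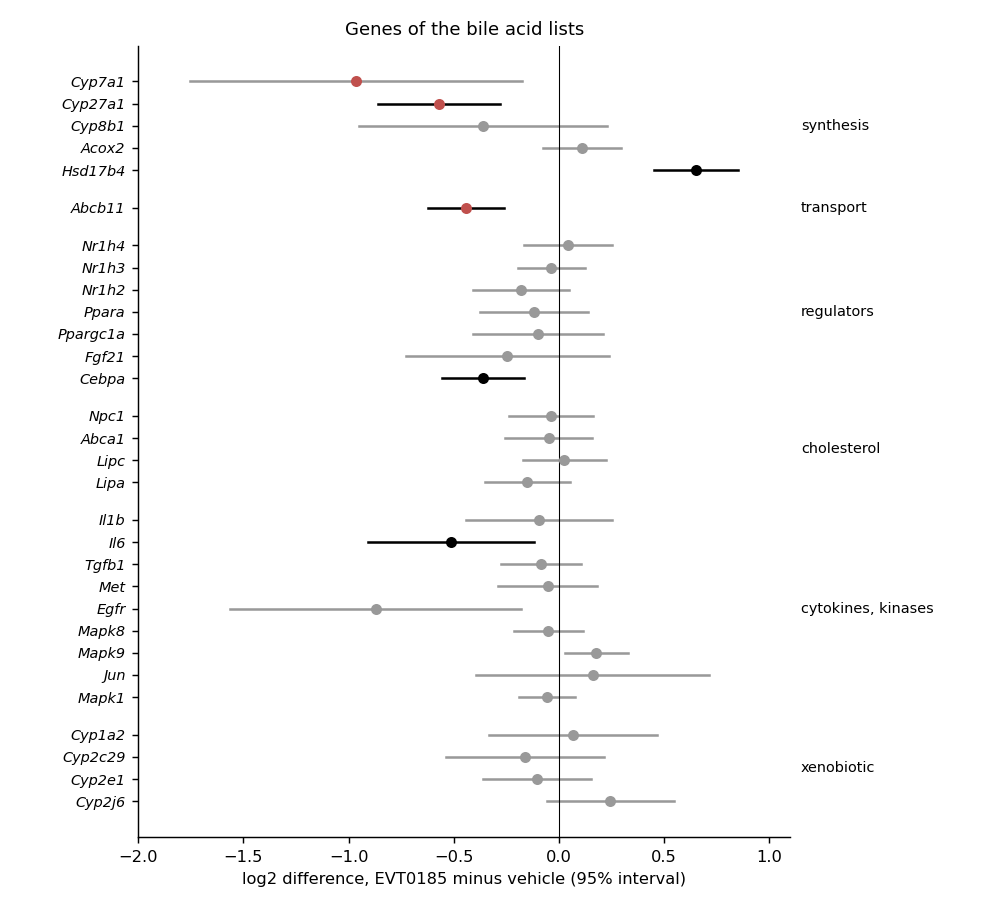
Log2 difference, EVT0185 minus vehicle, with its 95% limma interval for the 30 tested genes of the bile acid lists, grouped by role; black marks genes called at an adjusted p under 0.05 and red points are Cyp7a1, Cyp27a1 and Abcb11. Hsd17b4 lies to the right of 0, while Cyp27a1, Abcb11, Cebpa and Il6 lie to the left.

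The liver samples carried high levels of hepatocyte transcripts, and most of the markers tested were lower in EVT0185 livers too. Of 9 tested hepatocyte markers, 7 fell and 0 rose, with a median of log2 -0.46, and their summed normalized count ran from 185611 to 235765 in EVT0185 and from 261989 to 421551 in vehicle livers. After median centring 4 of the 9 passed, and after quantile normalization 5. Over all tested genes 21.6% were called lower on the deposited scale, 13.7% after median centring and 14.5% after quantile normalization. Those with the highest mean were Apoa1, Fgb and Fga (log2 -1.04, -0.30 and -0.47, limma adjusted p = 6.25e-06, 0.136 and 0.0728). The mean log2 value of the 9 was 13.8 ± 0.093 in EVT0185 and 14.5 ± 0.26 in vehicle livers (SD, n = 8 each), a difference of -0.67 (exact permutation p = 0.000155, the smallest possible). Pck1, Apoa1 and Fbp1 had the largest differences of the 9 (log2 -1.90, -1.04 and -0.85) and weigh most in this mean. Whether the mean follows hepatocyte number was not tested. Measured against the marker mean in the same liver, none of the 3 bile acid genes passed. Abcb11 minus the marker mean averaged -3.38 ± 0.16 in EVT0185 and -3.61 ± 0.18 in vehicle livers (SD, n = 8 each), a difference of 0.23 (SE 0.085, exact permutation adjusted p = 0.0536 over 3 genes). That value passed without EVT0185 6, vehicle 2 or vehicle 8 (exact permutation adjusted p from 0.0238), and it turned to -0.059 against the median of the markers (exact permutation adjusted p = 0.35). For Cyp27a1 the difference against the marker mean was 0.10 (SE 0.12, exact permutation adjusted p = 0.533), and it was -0.19 against the marker median. For Cyp7a1 it was -0.29 (SE 0.45, exact permutation adjusted p = 0.533), -0.62 without vehicle 4 and -0.58 against the marker median, and none of these passed.

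Hepatocytes differ along the lobule, and Cyp7a1 is known as a gene of the pericentral zone. The 3 pericentral markers Cyp2e1, Cyp1a2 and Cyp2c29 were not called (log2 -0.10, 0.068 and -0.16). Of 3 periportal markers 2 fell, Pck1 and Fbp1, both also on the hepatocyte list (log2 -1.90 and -0.85, limma adjusted p = 5.17e-05 and 0.00219). The remaining periportal marker, Arg1, was not called (log2 -0.032, limma adjusted p = 0.874). Under quantile normalization Cyp2e1 turned sign and was called higher in EVT0185 (log2 0.43, limma adjusted p = 0.0291). Counts for markers of other cells stand beside 21.6% of all tested genes called lower. Of 9 tested stellate cell and myofibroblast markers 4 fell, with summed counts of 1309 to 2221 in EVT0185 and 1785 to 3307 in vehicle livers. Of 5 macrophage markers 2 fell (897 to 1241 in EVT0185 and 757 to 2693 in vehicle livers), and of 5 endothelial markers 0 were called (777 to 1062 in EVT0185 and 693 to 1130 in vehicle livers). Of the cholangiocyte markers, 2 were measured, and the tested one, Spp1, fell (summed counts of 587 to 2797 in EVT0185 and 1054 to 4866 in vehicle livers), while Krt19, Krt7 and Epcam were not analysed here. Among lymphocyte markers 1 of 3 tested fell, and the summed counts of the 10 measured ran from 201 to 281 in EVT0185 and from 224 to 327 in vehicle livers. The neutrophil marker Csf3r was called lower as well (9.66 to 26.9 in EVT0185 and 20.4 to 34.8 in vehicle livers). It averaged 18.4 in EVT0185 livers, under the floor of 20, and 25.9 in vehicle livers. Csf3r thus passed the filter only through the vehicle group, and no more is read from its call. Of the markers called lower, Spp1, Csf3r, the macrophage marker Cd68 and the leukocyte marker Ptprc no longer passed after median centring (limma adjusted p from 0.0611 to 0.0786). The part of these shifts in the values of the bile acid genes was not tested beyond the comparison with hepatocyte markers.

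**Figure D5:**
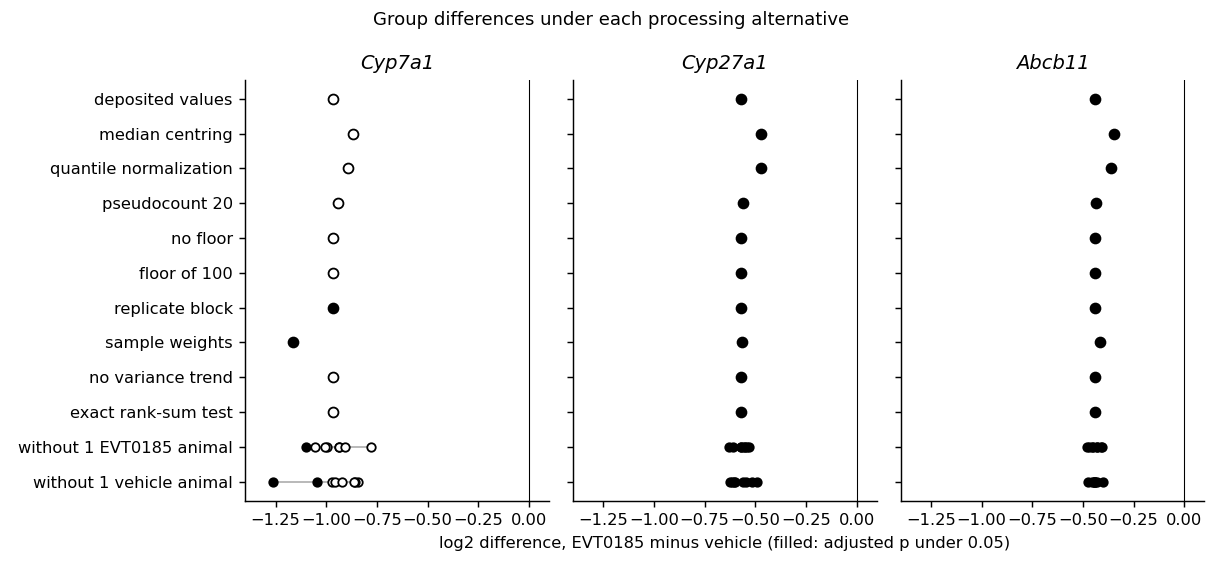
Log2 difference, EVT0185 minus vehicle, of the 3 bile acid genes under each alternative, with filled points where the adjusted p was under 0.05. Cyp27a1 and Abcb11 are filled throughout, and Cyp7a1 is filled with the replicate block, with sample weights and without EVT0185 2, vehicle 1 or vehicle 4.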

How the data were processed

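Liver RNA was measured on the nCounter Fibrosis Panel, whose probe pairs count RNA molecules through fluorescent barcodes without amplification, per the labels' protocols. The authors normalized the counts of 760 genes in nSolver 4.0 by a global geometric mean, per the series' design text, and deposited them as log2 values. On the linear scale, 100% of each sample's values were multiples of what 1 count is worth, within 0.1 of a count, which gave the total counts. How background was handled is not given in the sources used. All columns belonged to the 16 samples.

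The 612 genes whose normalized value averaged 20 or more were fitted with limma 3.58.1 in R 4.3.3 (lmFit, eBayes with a variance trend, no covariate) on the deposited values, with Benjamini-Hochberg adjustment over all 612 and a threshold of 0.05. SE is the moderated standard error. Differences are EVT0185 minus vehicle. Tests were two-sided. Single values were compared by exact permutation over all 12870 assignments of 8 of 16 livers. Correlations used values centred on each sample's median and all 40320 pairings. The fit was checked on simulated data. Among 56 within-group pairs of livers the chi-square per degree of freedom was at least 10.8, so none was a copy.

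The members and gene lists were chosen with earlier results of these data known. Named were the 3 genes, the called genes and the 3 smallest p of each pathway list, the 3 genes most like each member, and the 3 hepatocyte markers of highest mean; other names were added after their values were seen. Alternatives were median centring, quantile normalization, a pseudocount of 20, no floor, a floor of 100, the replicate number as a block, sample weights, no variance trend, an exact rank-sum test and leaving out each liver.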

Additional observations from a re-analysis of the deposited data

Results flagged for a closer look

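Among 44 groups of 8 livers, 8 held a value set apart from the nearest other by more of the group's range than Dixon's 95% critical value allows, where chance gives about 1 in 20. Of these, 3 rest on the low Cyp7a1 value of vehicle 4 and are not independent. They are Cyp7a1 minus Cyp27a1 (gap of 0.54 of the range), Cyp7a1 minus Abcb11 (0.603) and Cyp7a1 minus the hepatocyte marker mean (0.606). For Cyp7a1 on its own, vehicle 4 lay just inside the limit, at 0.512. Vehicle 4 had the lowest total count of the vehicle livers, 1470453. Its limma sample weight was 0.525, and vehicle 7 (0.184), vehicle 3 (0.414) and EVT0185 2 (0.439) had lower ones.

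The other values set apart were single livers in genes of the bile acid lists. Fgf21 was low in vehicle 3 (0.535), Egfr was high in vehicle 3 (0.586) and Cyp2c29 was low in vehicle 1 (0.63). Npc1 was high in EVT0185 4 (0.601) and Il6 was low in EVT0185 1 (0.641).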

How the results depend on the processing

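Cyp27a1 and Abcb11 kept their fall and their call under all 9 alternative settings and without each of the 16 livers, at log2 -0.63 to -0.47 for Cyp27a1 and -0.48 to -0.35 for Abcb11. Cyp7a1 stayed negative throughout but passed with the replicate block (log2 -0.97, limma adjusted p = 0.0397) and with sample weights (-1.16, limma adjusted p = 0.00425), and ranged from -1.26 to -0.78 without 1 liver; the cause was not tested. Whether the replicate numbers pair the livers was not tested. Deviations of same-numbered livers correlated above 0.1 in 5 of 8 pairs (r from -0.14 to 0.46). Of the 8, 1 correlated best with its own number. With the block, 190 genes were called against 200 without it, and Abcb11 minus the hepatocyte marker mean passed (0.23, exact sign-flip adjusted p = 0.0469; 0.20 to 0.27 without 1 liver). Egfr also passed with the block (limma adjusted p = 0.0281), and no other call of the 3 genes changed. Called genes numbered 170 to 251 over all settings.

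Values that turned sign were mostly near 0. Against the median of the hepatocyte markers, Cyp27a1 read -0.19 and Abcb11 -0.059. The difference in spread ran from -0.28 to 0.11 for Cyp7a1 without 1 liver, and was -0.012 for Abcb11 after median centring. Without centring, r among EVT0185 livers was -0.32 for Cyp7a1 and Cyp27a1 and -0.45 for Cyp7a1 and Abcb11. After median centring and quantile normalization, Npc1 read 0.057 and 0.071 and Abca1 0.047 and 0.058, and without 1 liver Npc1 ran from -0.10 to 0.0058 and Abca1 from -0.11 to 0.0038. After quantile normalization Lipa read 0.0066 and Cyp2e1 0.43, with Cyp2e1 called (limma adjusted p = 0.0291). For each of the 3 genes the counting SD was below the SD between animals. For Cyp7a1 these were 0.066 and 0.69 in EVT0185 and 0.052 and 0.97 in vehicle livers. What kept Cyp7a1 from passing was not tested.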
